A study of Mus musculus with 25 samples.

Results

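The butyrophilin-like genes Btnl1, Btnl2, Btnl4, Btnl6 and Btnl9 were followed in mouse distal colon, as 5 of the 49452 genes of the deposited expression table. They were chosen by family name, as rows whose identifier maps to these symbols, and because their measured levels were already known to vary between the genotypes. Their differences between genotypes are therefore given as a description with no test of their own. All 5 passed the filter on low values (at least 0.2 FPKM in at least 5 libraries, which 19266 genes did). Btnl1, Btnl4 and Btnl6 reached that level in all 25 libraries, Btnl2 in 21 and Btnl9 in 7.

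Butyrophilin-like proteins are membrane proteins with immunoglobulin-type domains, related to the butyrophilins and to the B7 family of T cell ligands. In the mouse gut, Btnl1 forms pairs with Btnl6 or Btnl4 on differentiated epithelial cells, and the Btnl1-Btnl6 pair is recognised by intraepithelial lymphocytes that carry the Vγ7 chain of the γδ T cell receptor. Btnl2 is encoded at the edge of the major histocompatibility complex class II region and inhibits T cell proliferation in culture, while Btnl9 is a less studied relative encoded on another chromosome.

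The series asks how IL-12, IL-23 and their shared p40 subunit bear on the colitis of mice without NEMO in the intestinal epithelium. RNA came from 25 mice aged 6 weeks on the C57BL/6 background, 5 per genotype. Control mice were Nemofl/fl, with floxed alleles of Ikbkg, the gene for NEMO, a regulatory subunit of the IκB kinase. NEMOIEC-KO mice lacked NEMO in intestinal epithelial cells, and the Cre driver is not given in the sources used here. A total of 3 double mutants carried the same deletion together with Il12b-/- (no p40), Il12a-/- (no p35, the other chain of IL-12) or Il23a-/- (no p19, the other chain of IL-23). Expression was given as FPKM, the number of fragments divided by transcript length in kilobases and by library size, so that genes can be compared per length. Replicates were separate mice.

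The summed FPKM of a library lay between 653776 and 744280, and absolute depth is unknown. Ikbkg averaged 9.08 ± 1.14 FPKM (SD, n = 5) in Nemofl/fl and between 3.34 and 4.08 FPKM in the 4 genotypes with the epithelial deletion, with no overlap. The 14 epithelial markers summed to between 12417 and 18629 FPKM in a library, against 52.8 to 149 FPKM for 14 small intestinal enterocyte genes, of which Apoa4, Cyp3a11 and Defa24 were listed at 0 in every Nemofl/fl library. The labels carry 3 library codes: the 5 Nemofl/fl libraries share one with replicates 3 to 5 of NEMOIEC-KO, replicates 1 and 2 of NEMOIEC-KO and 14 of the 15 double mutants have another, and Il23a-/- replicate 5 has the third. Differences between Nemofl/fl and the double mutants therefore cannot be told apart from the code. NEMOIEC-KO holds libraries of 2 codes, between which its Btnl4 and Btnl6 levels did not overlap. NEMOIEC-KO Il12a-/- replicate 1 stood apart from its group: its 25 interferon-γ response genes summed to 3642 FPKM against 1267 to 2065 FPKM in the other 4 libraries, and results that rest on it are given with and without it.

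Btnl1, Btnl2, Btnl4 and Btnl6 lie in one stretch of chromosome 17 (GRCm38, GENCODE M21). Btnl2 (chr17:34354822-34369495) and Btnl1 (chr17:34377132-34386028) are on the plus strand. Btnl4 (chr17:34466562-34477318) and Btnl6 (chr17:34507804-34517352) follow on the minus strand, with the pseudogene Btnl5-ps (chr17:34488070-34497429) between them and Btnl7-ps (chr17:34532877-34547651) beyond. Btnl9 is on chromosome 11 (chr11:49165585-49187159, minus strand). The annotation calls all 5 members protein coding, although 1 of the 2 Btnl6 transcripts is listed as a pseudogene transcript.

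The coding sequences of Btnl4 and Btnl6 were 89.7% identical (1451 of 1617 aligned bases), and each was 90.2% and 90.4% identical to Btnl5-ps. All other pairs of members lay between 55.3% and 60.4%. A stretch of 90 bases of the Btnl6 coding sequence (bases 882 to 971), the one with the most differences summed over both relatives, is shown because the 3 genes differ most there. Capitals mark bases that differ from Btnl6, 17 in Btnl4 (coding bases 891 to 980) and 19 in Btnl5-ps (transcript bases 889 to 978).
Btnl6: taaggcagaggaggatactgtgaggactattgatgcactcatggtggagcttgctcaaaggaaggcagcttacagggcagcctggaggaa
Btnl4: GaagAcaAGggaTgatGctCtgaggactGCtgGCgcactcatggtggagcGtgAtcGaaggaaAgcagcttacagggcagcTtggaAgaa
Btnl5-ps: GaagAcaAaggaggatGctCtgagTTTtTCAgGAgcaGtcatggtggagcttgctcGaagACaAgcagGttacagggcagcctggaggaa
Reads were sequenced as pairs of 76 bases. Of all 76-base windows of the longest transcript, 4.27% of Btnl4, 2.27% of Btnl6, 3.1% of Btnl5-ps and 4.38% of Btnl7-ps were found unchanged in another gene of the family, and none of Btnl1, Btnl2 or Btnl9. No window was shared directly by Btnl4 and Btnl6. Btnl4 shared 31 of its 1686 windows with Btnl5-ps, the most abundant gene of the cluster, Btnl6 shared 13 of 1676 with it, and Btnl7-ps 8 of 1688. How the authors' counting assigned reads within these shared stretches is not given in the sources used here, so the values of Btnl4, Btnl6, Btnl5-ps and Btnl7-ps are uncertain by an amount that was not measured.

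Promoters (250 bases before to 50 after the start, RefSeq, GRCm38.p6) were found for all 5 members. Those of Btnl4 and Btnl6 were 91.0% identical (272 of 299 aligned bases), and the other pairs lay between 49.6% and 59.3%. Both are shown because these genes moved together across the libraries, with capitals where 1 differs from the other. The RefSeq start of Btnl4 lies inside the GENCODE gene.
Btnl4 promoter (chr17:34475888-34476187, minus strand): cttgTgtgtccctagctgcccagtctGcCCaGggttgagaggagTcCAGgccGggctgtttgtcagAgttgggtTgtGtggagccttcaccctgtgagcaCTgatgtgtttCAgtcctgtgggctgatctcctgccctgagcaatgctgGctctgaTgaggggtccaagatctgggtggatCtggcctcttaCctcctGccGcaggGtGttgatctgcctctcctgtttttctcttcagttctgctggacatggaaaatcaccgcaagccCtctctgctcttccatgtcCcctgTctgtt
Btnl6 promoter (chr17:34517303-34517602, minus strand): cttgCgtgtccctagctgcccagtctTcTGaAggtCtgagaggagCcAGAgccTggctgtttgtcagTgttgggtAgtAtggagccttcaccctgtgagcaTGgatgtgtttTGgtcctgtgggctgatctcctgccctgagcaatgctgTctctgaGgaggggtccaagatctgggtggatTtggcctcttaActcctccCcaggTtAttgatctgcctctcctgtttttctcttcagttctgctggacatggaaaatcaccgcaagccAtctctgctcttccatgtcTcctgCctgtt
The promoter of Btnl2 is shown because Btnl2 differed most between the genotypes. Both strands of each promoter were searched for GAAANNGAA (a core of interferon-stimulated response elements, in 8.56% of 32851 mouse promoters of this length), CAAAGTCCA (an HNF4 site, 0.475%) and TTTATGG (a CDX site, 2.75%). Matches of different motifs may overlap. The single match to these 3 motifs among the 5 members was CAAAGTCCA in Btnl2, in capitals, whose first base lies 41 bases before the start.
Btnl2 promoter (chr17:34354572-34354871, plus strand): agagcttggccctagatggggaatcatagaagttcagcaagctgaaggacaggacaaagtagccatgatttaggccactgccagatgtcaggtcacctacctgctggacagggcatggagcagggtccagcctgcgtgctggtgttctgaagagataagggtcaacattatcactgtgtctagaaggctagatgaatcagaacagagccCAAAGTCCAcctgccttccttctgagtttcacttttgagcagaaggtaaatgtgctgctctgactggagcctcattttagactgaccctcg
A match is a description of letters and not a binding site, and the absence of a match says nothing about a factor acting elsewhere.

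Btnl6, the partner of Btnl1, was the most abundant member. Its levels were 46.5, 21.6, 24.9, 28.1 and 27.1 FPKM in Nemofl/fl and 47.4, 63.7, 36.7, 40.6 and 42.2 FPKM in NEMOIEC-KO (replicates 1 to 5, here and below). Every NEMOIEC-KO library lay above 4 of the 5 Nemofl/fl libraries, and Nemofl/fl replicate 1 lay among them. The levels were 28.5, 12.5, 29.9, 38.4 and 35.7 FPKM in Il12b-/-, 47.6, 20.9, 21, 33 and 24.4 FPKM in Il12a-/-, and 37, 43.9, 37.1, 38.2 and 41.2 FPKM in Il23a-/-. The libraries of every double mutant overlapped both Nemofl/fl and NEMOIEC-KO. Those of Il23a-/- lay close together and within the range of NEMOIEC-KO. That range was split by library code. The 2 NEMOIEC-KO libraries with the code of most double mutants held 47.4 to 63.7 FPKM, the other 3 36.7 to 42.2 FPKM. The 4 Il23a-/- libraries of the first code (37.0 to 43.9 FPKM) lay below both NEMOIEC-KO libraries of that code. Whether the code is behind this was not tested. On the log2(FPKM + 0.5) scale the difference from Nemofl/fl was 0.65 ± 0.26 (SE, 95% interval 0.12 to 1.18) in NEMOIEC-KO and 0.45 (-0.08 to 0.99) in Il23a-/-. Relative to NEMOIEC-KO it was -0.73 (-1.26 to -0.20) in Il12b-/-, -0.69 (-1.22 to -0.16) in Il12a-/- and -0.20 (-0.73 to 0.33) in Il23a-/-. Without Il12a-/- replicate 1 the difference from NEMOIEC-KO was -0.88 in that genotype.

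Btnl4, the other partner of Btnl1, was present at a lower level than Btnl6. It measured 10.7, 6.18, 8.08, 8.43 and 8.35 FPKM in Nemofl/fl against 18, 25, 15.1, 13 and 15.4 FPKM in NEMOIEC-KO. These groups did not overlap. In Il12b-/- the values were 5.75, 7.87, 7.73, 12.4 and 10.2 FPKM, all below NEMOIEC-KO. In Il12a-/- they were 21.8, 6.33, 7.64, 11.3 and 6.81 FPKM, of which only replicate 1 reached the range of NEMOIEC-KO. In Il23a-/- they were 16, 16.3, 12.5, 12.4 and 8.05 FPKM, with 3 libraries below every NEMOIEC-KO library. The 2 NEMOIEC-KO libraries with the code of most double mutants held 18.0 to 25.0 FPKM, the other 3 13.0 to 15.4 FPKM. All 4 Il23a-/- libraries of the first code (12.4 to 16.3 FPKM) lay below both NEMOIEC-KO libraries of that code. The log2 difference from Nemofl/fl was 0.99 ± 0.27 (0.43 to 1.54) in NEMOIEC-KO and 0.59 (0.04 to 1.15) in Il23a-/-, whose libraries overlapped Nemofl/fl. Against NEMOIEC-KO it was -0.94 (-1.50 to -0.39) in Il12b-/-, -0.78 (-1.33 to -0.22) in Il12a-/- (-1.06 without replicate 1) and -0.40 (-0.95 to 0.16) in Il23a-/-. The ratio of Btnl4 to Btnl6 averaged 0.289 ± 0.0358 in Nemofl/fl and 0.373 ± 0.0347 in NEMOIEC-KO (SD, n = 5), with overlapping ranges of 0.231 to 0.324 and 0.32 to 0.412. It reached 0.631 in the Il12b-/- library with the lowest Btnl6.

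Btnl1, the shared partner, varied widely between mice of 1 genotype. It measured 8.34, 2.38, 4.81, 3.48 and 4.23 FPKM in Nemofl/fl and 7.24, 6.1, 3.12, 15.2 and 6.48 FPKM in NEMOIEC-KO. The values in Il12b-/- were 16.8, 1.54, 6.47, 10.2 and 7.45 FPKM, with a lowest and a highest library that lay far apart. Il12a-/- libraries held 2.89, 4.8, 3.8, 4.79 and 4.54 FPKM, and Il23a-/- libraries 3.71, 10.9, 17, 5.79 and 19.2 FPKM. All pairs of genotypes overlapped. The coefficient of variation within a genotype was between 48.5% and 65.8% in 4 genotypes and 19.7% in Il12a-/-. The log2 difference was 0.60 (-0.39 to 1.59) for NEMOIEC-KO against Nemofl/fl, and against NEMOIEC-KO it was 0.01 (-0.98 to 1.0) in Il12b-/-, -0.66 (-1.65 to 0.33) in Il12a-/- and 0.47 (-0.52 to 1.46) in Il23a-/-. These values rested on single libraries. Leaving out 1 library gave 0.32 (without NEMOIEC-KO replicate 4) to 0.85 (without NEMOIEC-KO replicate 3) for the first, and -0.30 to 0.47 (without Il12b-/- replicate 1 or 2) for Il12b-/-. The range was -0.91 to -0.38 (without NEMOIEC-KO replicate 3 or 4) for Il12a-/- and 0.22 (without NEMOIEC-KO replicate 3) to 0.79 (without Il23a-/- replicate 1) for Il23a-/-.

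Btnl2, the member that inhibits T cell proliferation in culture, had the widest span. It measured 0.122, 0.158, 0.24, 0.129 and 0.143 FPKM in Nemofl/fl and 6.6, 9.35, 8.75, 7.53 and 6.27 FPKM in NEMOIEC-KO. The means differed 48.6-fold in FPKM, and 3.63 ± 0.26 (3.09 to 4.17) on the log2(FPKM + 0.5) scale, which understates the ratio of a gene this low in the controls. Il12b-/- libraries held 0.655, 0.994, 0.524, 0.904 and 0.455 FPKM. All lay below NEMOIEC-KO and above Nemofl/fl, with a log2 difference of -2.77 (-3.31 to -2.23) from the first and 0.85 (0.31 to 1.39) from the second. Il12a-/- libraries held 3.54, 0.594, 0.46, 0.725 and 0.913 FPKM. These too lay between both reference genotypes, and 4 of the 5 were within the range of Il12b-/-. Their log2 difference from NEMOIEC-KO was -2.45 (-2.98 to -1.91), or -2.81 without replicate 1. Il23a-/- libraries held 6.98, 4.18, 5, 6.99 and 5.88 FPKM, overlapping NEMOIEC-KO (-0.39, -0.93 to 0.15) and above every library of the remaining genotypes.

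Ordered by mean, Btnl2 was highest in NEMOIEC-KO (7.7 ± 1.33 FPKM) and Il23a-/- (5.81 ± 1.23), then Il12a-/- (1.25 ± 1.29), Il12b-/- (0.706 ± 0.235) and Nemofl/fl (0.159 ± 0.0476). The place of Il12a-/- rested on replicate 1: without it the mean was 0.673 ± 0.193 FPKM (SD, n = 4), below that of Il12b-/-, and the log2 difference between both went from 0.33 to -0.03. NEMOIEC-KO and Il23a-/- did not differ beyond their spread, nor did Il12a-/- and Il12b-/-, whose libraries overlapped. Il23a-/- exceeded Il12a-/- by 2.06 (1.52 to 2.60) and Il12b-/- by 2.38 (1.85 to 2.92) on the log2 scale, with no overlap. The means of Btnl4 and Btnl6 followed the same order at the upper end (17.3 ± 4.66 and 46.1 ± 10.6 FPKM in NEMOIEC-KO, 13 ± 3.34 and 39.5 ± 2.98 in Il23a-/-). The 3 lower genotypes overlapped each other and also Il23a-/- in both genes (means of 8.35 to 10.8 FPKM for Btnl4, 29 to 29.7 FPKM for Btnl6). Without replicate 1 the Il12a-/- means were 8.01 ± 2.23 FPKM for Btnl4 and 24.8 ± 5.71 FPKM for Btnl6, each below those of Nemofl/fl and Il12b-/-.

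Btnl9, the less studied relative, was barely detected. Its mean was between 0.117 and 0.21 FPKM in every genotype, and no library exceeded 0.261 FPKM. The Il12b-/- mean was the highest (0.21 ± 0.0384 FPKM), with a log2 difference of 0.17 (-0.02 to 0.37) from NEMOIEC-KO. All genotypes overlapped with NEMOIEC-KO.

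**Figure D1:**
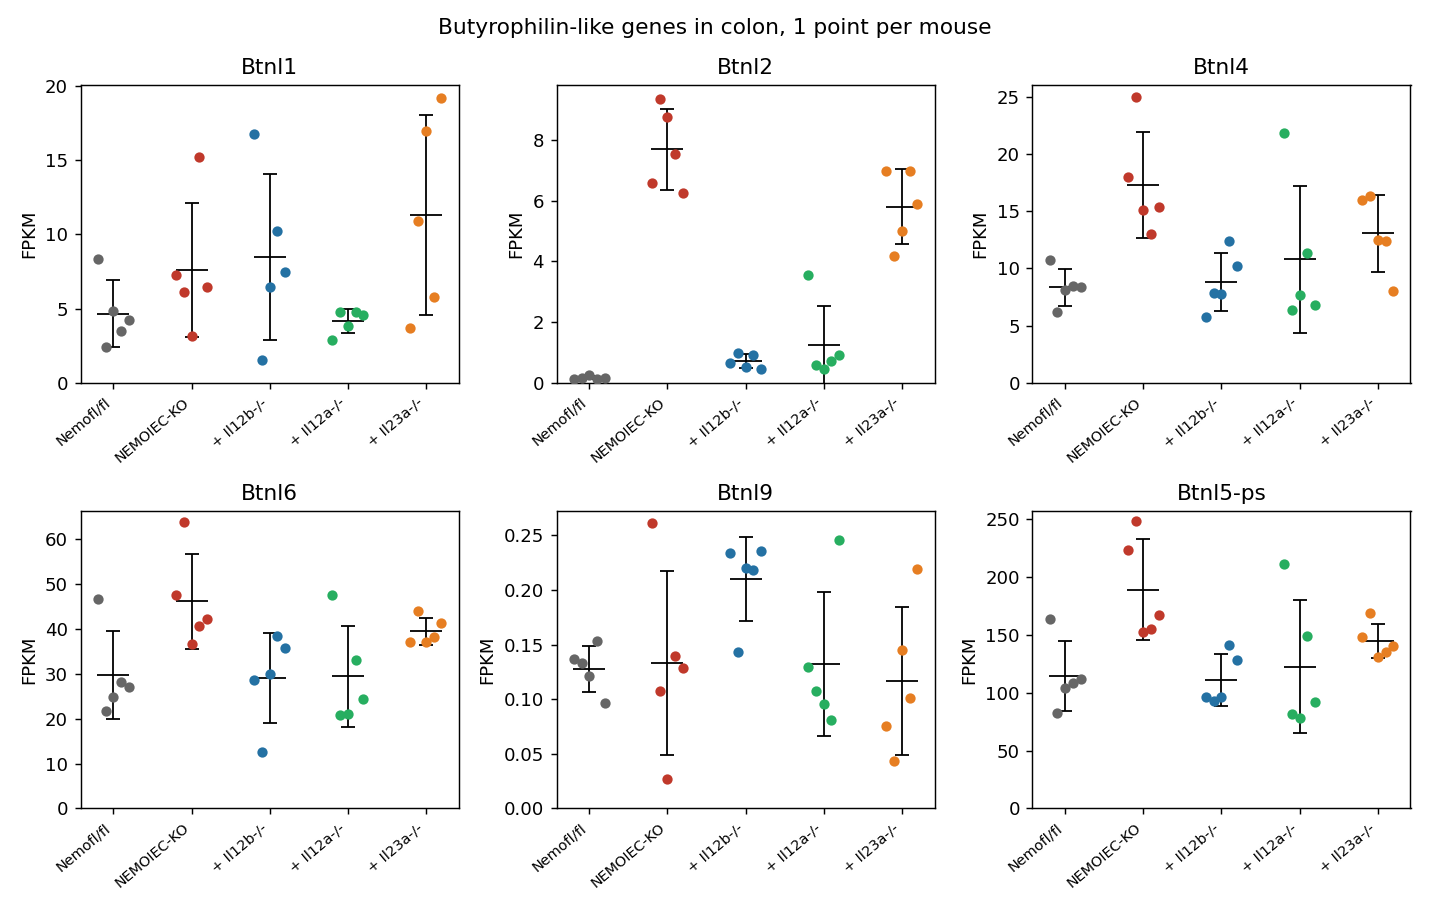
FPKM of the 5 members and of the pseudogene Btnl5-ps (y axes, linear from 0) in each genotype (x axis; + marks a NEMOIEC-KO double mutant), 1 point per mouse with mean and SD bars of 5 mice. Btnl2 lies between 0.122 and 0.24 FPKM in Nemofl/fl and between 6.27 and 9.35 FPKM in NEMOIEC-KO, while the 5 groups of Btnl1 overlap; the lower SD bar of Btnl2 in Il12a-/- passes below 0 and is not drawn there.

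**Figure D2:**
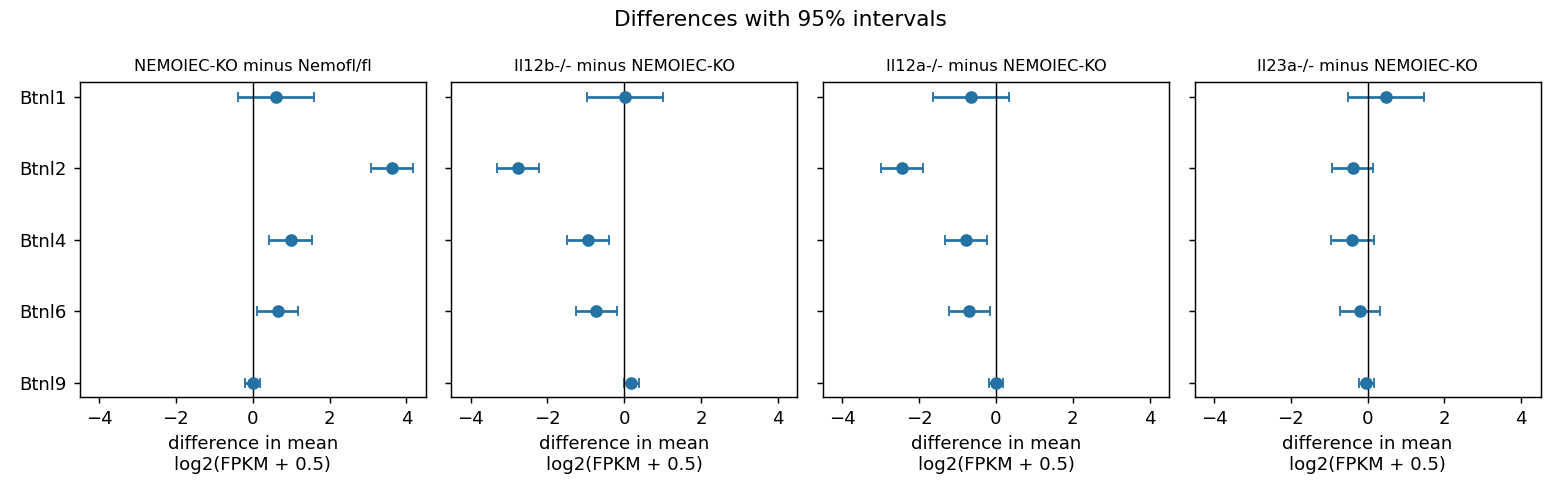
Difference in mean log2(FPKM + 0.5) with its 95% interval (x axis) for each member (y axis) in the 4 main comparisons, from 1 linear model over 25 libraries. Btnl2 stands farthest from 0 in the first 3 panels (3.63, -2.77 and -2.45), and every interval of the Il23a-/- panel includes 0.

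Read against all genes, the members' counts are as follows. The threshold was an adjusted p below 0.05 in limma over 19266 genes, and since the members were chosen with these values known the counts support nothing. In NEMOIEC-KO against Nemofl/fl, Btnl2 and Btnl4 were past it and higher, where 32.2% of all genes were past it (11.9% higher, 20.3% lower). In Il12b-/- against NEMOIEC-KO, Btnl2, Btnl4 and Btnl6 were past it and lower, against 19.9% of all genes (14.0% higher, 5.94% lower). The count was 1 without NEMOIEC-KO replicate 2 or Il12b-/- replicate 1 and 0 with the epithelial score as a covariate, and Btnl6 was past the threshold in 7 of 23 alternatives. In Il12a-/- against NEMOIEC-KO, Btnl2 alone was lower, against 9.61% (5.61% higher, 4.0% lower), and without Il12a-/- replicate 1 the count was 3. In Il23a-/- against NEMOIEC-KO no member was past it, against 0.083% (0.0467% higher, 0.0363% lower); 2026 genes had an unadjusted p below 0.05 there. Median log2 differences of the 5 members in these comparisons were 0.65, -0.73, -0.69 and -0.20, beside -0.08, 0.11, 0.07 and 0.03 over all genes tested. Against Nemofl/fl, 0 members passed in Il12b-/- (0.369% of genes), 1 in Il12a-/- (1.34%; 0 without Nemofl/fl replicate 1, 4 or 5) and 1 in Il23a-/- (29.5%; 2 without Il23a-/- replicate 1 or 5). Between double mutants, 1 member passed in Il23a-/- against Il12b-/- (5.11%), 1 in Il23a-/- against Il12a-/- (1.16%) and 0 in Il12a-/- against Il12b-/- (0.41%). The single member in each of these was Btnl2. Comparisons that share NEMOIEC-KO or Nemofl/fl libraries are not independent.

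The nearest relatives were measured in the same libraries. Btnl5-ps, an unprocessed pseudogene whose transcripts were counted, had the highest level of the cluster, with a mean of 114 ± 30 FPKM in Nemofl/fl and 189 ± 43.9 FPKM in NEMOIEC-KO. The double mutants averaged 111 ± 22.2 FPKM (Il12b-/-), 122 ± 57.2 FPKM (Il12a-/-) and 145 ± 15.1 FPKM (Il23a-/-). It was higher in NEMOIEC-KO than in Nemofl/fl (log2 difference 0.73 ± 0.23, limma adjusted p = 0.018), although the ranges overlapped, and lower in Il12b-/- than in NEMOIEC-KO (-0.76 ± 0.23, limma adjusted p = 0.022). The first was no longer past the threshold without Nemofl/fl replicate 2 (0.62) or NEMOIEC-KO replicate 2 (0.63). Nor was the second without NEMOIEC-KO replicate 1 or 2 or Il12b-/- replicate 1 (-0.71 to -0.65). Btnl5-ps in NEMOIEC-KO was also split by library code. It held 223 to 248 FPKM in the 2 libraries with the code of most double mutants and 152 to 167 FPKM in the other 3. The 4 Il23a-/- libraries of the first code held 131 to 169 FPKM. Btnl7-ps reached at most 1.33 FPKM, with means of 0.197 FPKM in Nemofl/fl and 0.873 FPKM in NEMOIEC-KO (0.92 ± 0.21, limma adjusted p = 0.003). Its ranges overlapped, with NEMOIEC-KO replicate 3 at 0.175 FPKM, within the 0.0357 to 0.31 FPKM of Nemofl/fl. This gene was low beside Btnl5-ps, with which it shares windows, and the part of shared reads in its value was not tested. Btnl10, Btn2a2 and Btn1a1 averaged at most 0.0372, 0.0478 and 0.421 FPKM in any genotype. Of the wider list of butyrophilin and B7 relatives, which holds both pseudogenes, 6 of 11 tested genes were higher in NEMOIEC-KO than in Nemofl/fl. None was lower, beside 11.9% higher and 20.3% lower of all genes. Cd274, the gene for the T cell inhibitory ligand PD-L1, rose by 1.86 ± 0.39 (limma adjusted p = 0.0014), and Pdcd1lg2, the gene for PD-L2, by 1.01 ± 0.20 (limma adjusted p = 0.00072). Against NEMOIEC-KO, 3 of the 11 were lower in Il12b-/- (5.94% of all genes), 4 in Il12a-/- (4.0%) and 0 in Il23a-/- (0.0363%). The 4 in Il12a-/- include Btnl5-ps and Btnl7-ps, which were past the threshold there in only 7 of 23 and 8 of 22 alternatives.

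Across the 25 libraries Btnl4 and Btnl6 varied with Btnl5-ps. Pearson's r of log2 values was 0.93 between Btnl4 and Btnl5-ps (0.88 after centring within genotype), 0.89 between Btnl6 and Btnl5-ps (0.83) and 0.79 between Btnl4 and Btnl6 (0.67). These are descriptions over libraries that share genotype and tissue makeup, and the genes share a few stretches of identical sequence. The ratio of Btnl5-ps to Btnl6 averaged between 3.66 and 4.26 in the 5 genotypes and lay between 3.22 and 4.71 in all libraries but Il12b-/- replicate 2, where it was 7.44. That library had the lowest Btnl6 (12.5 FPKM) and the lowest Btnl1 (1.54 FPKM) of all 25, with 7.87 FPKM of Btnl4. Btnl1 was less tied to the others, with r of 0.51 to Btnl6, 0.28 to Btnl2 and 0.06 to Btnl4. Btnl2 had r of 0.74 to Btnl4 (0.56 centred) and 0.61 to Btnl6 (0.27 centred).

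**Figure D3:**
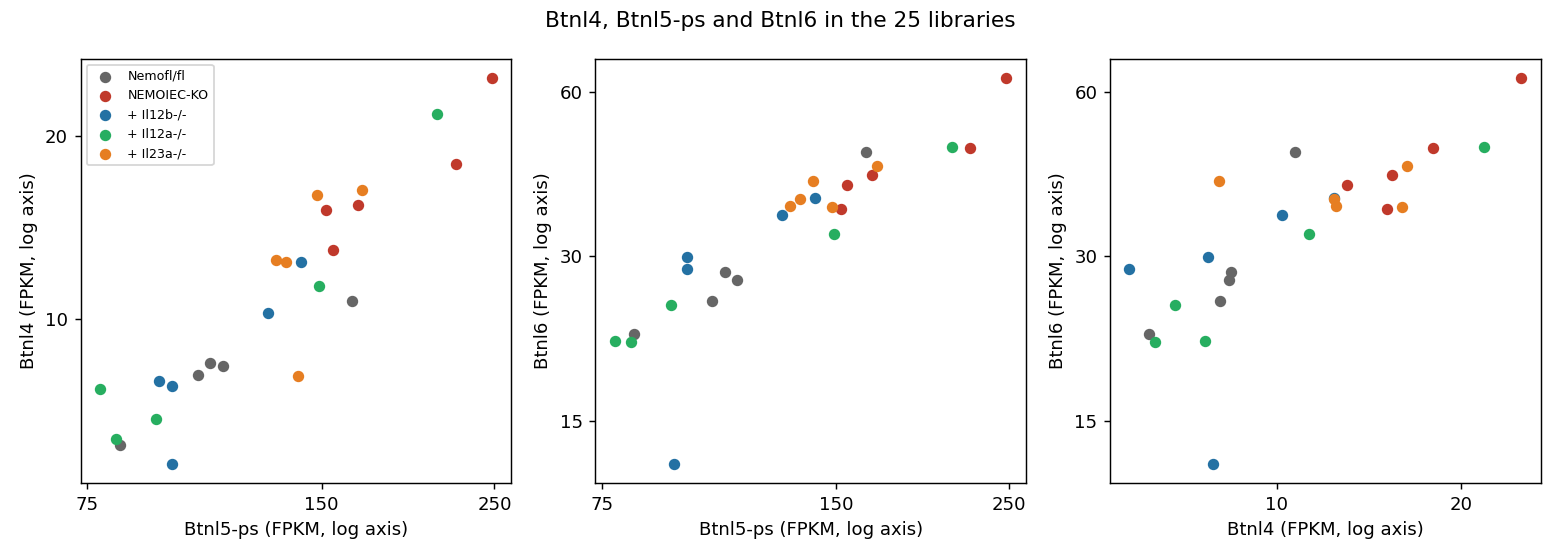
FPKM of Btnl4 and Btnl6 against Btnl5-ps, and of Btnl6 against Btnl4 (log axes), 1 point per library in the colour of its genotype. The points follow 1 line across genotypes (r = 0.93, 0.89 and 0.79), and the Il12b-/- library at 12.5 FPKM of Btnl6 lies below it.

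The genes most like each member were found by Pearson's r over the 25 libraries. For Btnl2 these were Tap2 (r = 0.99, 0.81 centred), a subunit of the peptide transporter, H2-DMa (0.99, 0.84), B2m (0.98, 0.87), H2-Q4 (0.98, 0.89) and H2-Ab1 (0.98, 0.75), all parts of antigen presentation by major histocompatibility complex molecules. H2-Ab1 averaged 89.5 FPKM in Nemofl/fl and 1132 FPKM in NEMOIEC-KO. In Il12a-/- replicate 1 it was 494 FPKM, against 177 to 332 FPKM in the other 4 libraries of that genotype, and Btnl2 was likewise highest in that library. For Btnl1 the most alike were Capn8 (r = 0.81), a calpain of the stomach and gut, Ccl6 (0.81), Cdhr2 (0.80, 0.91 centred), a cadherin of the brush border, Tpsg1 (0.75) and Oplah (0.74). Btnl4 was most like Kif13b (0.95), Btnl5-ps (0.93), Il22ra1 (0.92), a chain of the epithelial IL-22 receptor, Arhgef37 (0.90) and Tnfrsf14 (0.90). After Btnl5-ps, Btnl6 was most like Slfn4 (0.87), Ly75 (0.86), Ifih1 (0.85) and Parp12 (0.85). Btnl9 was most like Cyp2e1 (0.69), Aph1b (0.68), Cfd (0.68), Adipoq (0.67) and Itm2b (0.66); Adipoq and Cfd are adipocyte genes, and r from values this low is weak.

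**Figure D4:**
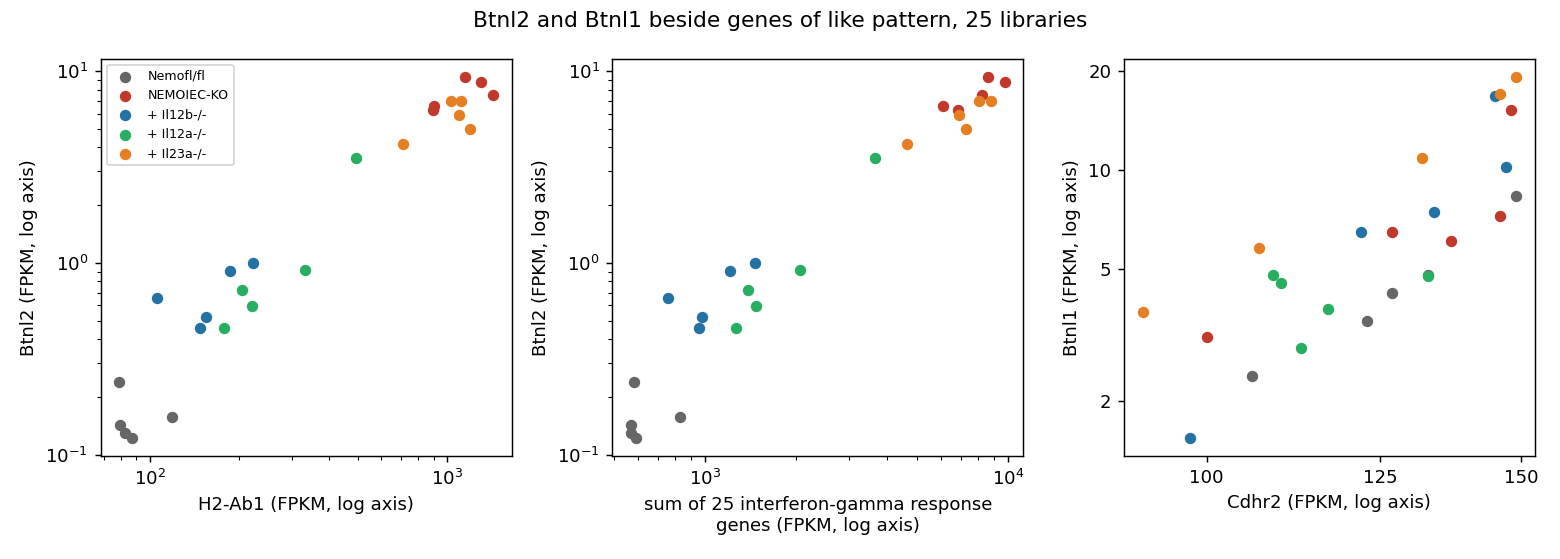
Btnl2 against H2-Ab1 and against the summed FPKM of 25 interferon-γ response genes, and Btnl1 against Cdhr2 (log axes), 1 point per library in the colour of its genotype. H2-Ab1 is 1 of the 25 summed genes, and H2-Ab1 and Cdhr2 were chosen for their high r in these same libraries. NEMOIEC-KO and Il23a-/- libraries lie at the upper end for Btnl2 and Il12a-/- replicate 1 (3.54 FPKM) between them and the rest, while the genotypes mix along the range of Btnl1.

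Interferon-γ response genes differed between the genotypes in the same libraries. All 25 were higher in NEMOIEC-KO than in Nemofl/fl (median log2 difference 3.34), with Ido1, a tryptophan-degrading enzyme, at 6.04 ± 0.80 (limma adjusted p = 1.9e-05) and Iigp1, an interferon-induced GTPase, at 4.57 ± 0.58 (limma adjusted p = 1.3e-05). All 25 were lower than in NEMOIEC-KO in Il12b-/- (median -2.59) and in Il12a-/- (median -2.07). In Il23a-/-, where 0.083% of all genes were past the threshold, 0 of the 25 were (median -0.21). Their summed level was 571 to 830 FPKM in Nemofl/fl and 6119 to 9754 FPKM in NEMOIEC-KO. It was 758 to 1465 FPKM with Il12b-/-, 1267 to 3642 FPKM with Il12a-/- and 4650 to 8820 FPKM with Il23a-/-. Their part in the Btnl differences was not tested.

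Epithelial markers were examined because Btnl1, Btnl4 and Btnl6 are known from epithelial cells and the samples are whole tissue. Which cells gave the signal of each member was not tested. In bulk tissue fewer cells of a type and less RNA per cell cannot be told apart. Of 14 markers, 8 were higher in NEMOIEC-KO than in Nemofl/fl and 0 lower, led by Cldn4 (0.85 ± 0.23, limma adjusted p = 0.0093), a tight junction protein, and Cdh17 (0.82 ± 0.15, limma adjusted p = 0.00054), an intestinal cadherin. Against NEMOIEC-KO, 7 were lower in Il12b-/- and 5 in Il12a-/-. In Il23a-/-, where 0.083% of all genes were past the threshold, 0 of the 14 markers were. Their summed level was 12417 to 13503 FPKM in Nemofl/fl and 15158 to 17000 FPKM in NEMOIEC-KO, and it was 12643 to 16523 FPKM with Il12b-/-, 13235 to 17183 FPKM with Il12a-/- and 14788 to 18629 FPKM with Il23a-/-. The 14 smooth muscle markers moved the other way, with 11 lower and 0 higher in NEMOIEC-KO than in Nemofl/fl. Their sums were 3375 to 12040 FPKM in Nemofl/fl and 1886 to 5588 FPKM in NEMOIEC-KO. Against NEMOIEC-KO 0 were past the threshold in any double mutant. Their median log2 differences there were 0.73 in Il12b-/-, 1.02 in Il12a-/- and -0.14 in Il23a-/-. The sums were 2193 to 9949 FPKM with Il12b-/-, 2553 to 12300 FPKM with Il12a-/- and 2102 to 6307 FPKM with Il23a-/-.

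Set against the mean of the epithelial markers on the same log2 scale, the difference between NEMOIEC-KO and Nemofl/fl was 3.27 for Btnl2, 0.64 for Btnl4, 0.30 for Btnl6 and 0.24 for Btnl1. Against NEMOIEC-KO the Il12b-/- difference was -2.42 for Btnl2, -0.59 for Btnl4 and -0.37 for Btnl6, and the Il12a-/- difference was -2.18, -0.51 and -0.42. With the epithelial score as a covariate the first comparison gave 2.54 for Btnl2, 0.18 for Btnl4 and 0.49 for Btnl6, and with the smooth muscle score 3.12, 0.64 and 0.52. Btnl4 was then no longer past the threshold. Within the library code that holds Nemofl/fl, Btnl4 differed by 0.77 and Btnl6 by 0.47 between 3 NEMOIEC-KO and 5 Nemofl/fl libraries. Within the code of the double mutants, against 2 NEMOIEC-KO libraries, Btnl2 differed by -2.82, Btnl4 by -1.27 and Btnl6 by -1.0 in Il12b-/-.

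Absorptive colonocyte markers moved in both directions. Of 17 tested, 2 were higher and 10 lower in NEMOIEC-KO than in Nemofl/fl (median -1.55), led by Cyp2c55 (-4.97 ± 0.89, limma adjusted p = 0.00038), a cytochrome P450 of colon, while Krt20, a keratin of mature epithelium, rose by 1.14 ± 0.16 (limma adjusted p = 2.9e-05). The mean levels of Btnl4 and Btnl6 were above those of Nemofl/fl in the same libraries. Of 9 small intestinal enterocyte genes tested, 3 were higher and 3 lower. The shares of all genes tested in this comparison were 11.9% higher and 20.3% lower.

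Of 20 intestinal transcription factor genes, 3 were higher and 3 lower in NEMOIEC-KO than in Nemofl/fl. Of all genes tested, 11.9% were higher and 20.3% lower there. Isx, a homeobox gene of enterocytes, rose by 2.69 ± 0.61 (limma adjusted p = 0.0023) and Prdm1, the gene for Blimp1, by 1.51 ± 0.27 (limma adjusted p = 0.00035). Vdr, the vitamin D receptor gene, fell by 1.26 on the log2 scale (limma adjusted p = 0.002). Hnf4a averaged 216 FPKM in Nemofl/fl and 187 to 198 FPKM in the other genotypes, Hnf4g 5.27 FPKM against 3.20 to 4.22 FPKM, and Cdx1 248 FPKM against 269 to 336 FPKM, and none of them was past the threshold in NEMOIEC-KO against Nemofl/fl. Cdx2 was higher in Il12b-/- than in NEMOIEC-KO (19.3 against 8.24 FPKM, 1.25 ± 0.42, limma adjusted p = 0.04). Within genotypes Btnl6 varied with Hnf4a (centred r = 0.72) and Hnf4g (0.53), Btnl4 with Hnf4g (0.66), and Btnl1 with Hnf4a (0.68) and Cdx2 (0.54), as descriptions over 25 libraries. Gata4, another factor gene, gave 0.57 with Btnl1 and with Btnl6. The other pairs of members with these factors reached at most 0.4 (Btnl4 with Hnf4a). Several were negative, among them Btnl4 with Cdx2 (-0.38), Btnl6 with Cdx1 (-0.41) and Btnl9 with Cdx1 (-0.59). Btnl2 with Hnf4a gave 0.02.

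Receptor genes of γδ T cells, of which the Vγ7 cells that read the Btnl1-Btnl6 pair are a part, gave low signals. Trdc, the constant region of the T cell receptor δ chain, averaged 0.101 FPKM in Nemofl/fl and 0.209 FPKM in NEMOIEC-KO (0.24 ± 0.09, limma adjusted p = 0.048), and Tcrg-C1, a γ constant region, 0.427 and 1.23 FPKM (0.88 ± 0.21, limma adjusted p = 0.0035). Tcrg-V7, the segment of the chain that the Btnl1-Btnl6 pair engages, was listed at 0 in all Nemofl/fl and all Il12b-/- libraries, and reached 0.731 FPKM in NEMOIEC-KO, 0.101 in Il12a-/- and 0.851 in Il23a-/-. It did not pass the filter. Of 20 intraepithelial lymphocyte genes tested, 17 were higher in NEMOIEC-KO than in Nemofl/fl and 0 lower (median 0.87), led by Gzma (3.22 ± 0.41, limma adjusted p = 1.4e-05) and Gzmb (2.12 ± 0.27, limma adjusted p = 1.2e-05), granzymes that other killer cells also make. Itgae, the αE integrin of intraepithelial lymphocytes, rose by 0.67 ± 0.13 (limma adjusted p = 0.0006). Against NEMOIEC-KO, 15 were lower in Il12b-/- (5.94% of all genes), 8 in Il12a-/- (4.0%) and 0 in Il23a-/- (0.0363%). Genes of αβ T cells moved with them: 10 of 10 were higher in NEMOIEC-KO, and 4 were lower in Il12b-/- and 0 in Il12a-/-. Their part in the γδ T cell values was not tested.

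Epithelial signals to intraepithelial lymphocytes were split. Of 13 tested, 4 were higher and 4 lower in NEMOIEC-KO than in Nemofl/fl, beside 11.9% and 20.3% of all genes. H2-T10 and H2-T22, genes for class I-like molecules seen by some γδ T cells, were higher by 1.72 ± 0.19 and 1.07 ± 0.15 (limma adjusted p = 2.7e-06 and 4.2e-05), as was Tnfrsf14, the gene for the receptor HVEM, by 1.46 ± 0.24 (limma adjusted p = 0.00017). Il15, a cytokine that sustains these lymphocytes, fell by 1.42 on the log2 scale, from 35.7 to 13.6 FPKM (limma adjusted p = 0.0091). In Il12b-/- 0 were higher and 5 lower than in NEMOIEC-KO, in Il12a-/- 1 and 4, and in Il23a-/- 0 and 0. Of all genes, 0.083% were past the threshold in that last comparison.

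Among markers of other cells, 2 of 13 endothelial genes were lower and 0 higher in NEMOIEC-KO than in Nemofl/fl. Of 11 adipocyte genes, 1 was higher and 3 lower. Of 10 B cell genes 0 were past the threshold, and 7 of 13 macrophage and dendritic cell genes were higher and 1 lower. In Il12b-/- against NEMOIEC-KO the counts were 3 higher and 0 lower for endothelial genes and 2 and 0 for adipocyte genes. They were 0 and 0 for B cell genes, and 0 and 1 for macrophage and dendritic cell genes. Of all genes tested, 11.9% were higher and 20.3% lower in the first comparison, and 14.0% and 5.94% in the second.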

How the data were processed

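RNA of distal colon was measured by poly(A)-selected, stranded, paired-end sequencing in 25 mice, per the labels' protocols. The authors deposited FPKM per gene and library. The build was GRCm38, and the programs named are Cufflinks 2.1.1, TopHat2 2.0.10 and DESeq2 1.10.1, per the submitters' processing notes, which give no role or order here, with the annotation release not given in the sources used here. Of 49452 identifiers, 49109 matched a symbol. Absolute depth is unknown, so no counting interval is given, and a 0 sets no upper limit.

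The 19266 genes that reached 0.2 FPKM in 5 or more libraries were analysed as log2(FPKM + 0.5) and entered 1 linear model with a mean per genotype in limma 3.58.1 under R 4.3.3 (trended prior variance, 20 residual degrees of freedom). Tests were two-sided, with Benjamini-Hochberg adjustment over all genes of a comparison and a threshold of 0.05. The model was run on simulated data with independent noise per gene and changes placed only in genes of small spread that were not low. That run does not cover genes as low as Btnl9 or as variable as Btnl1. Scores are the mean log2 value of a marker list. Sequences were aligned with Biopython 1.88. The members and the gene lists were chosen with earlier results of these data known. Genes named are the 5 members, the 5 genes with the highest r to each among those with a mean of at least 1 FPKM, a few receptor, transcription factor and family genes, and for each of 14 lists the genes with the largest changes past the threshold, of which a part is printed. Same-numbered replicates are separate mice and were not paired. Values within groups had a median correlation of 0.0146 over 50 same-numbered pairs of libraries and of 0.00523 over 200 others. No 2 libraries held identical values. Alternatives were another pseudocount, other filters, other scalings, covariates, library codes and leaving out each library. A further promoter motif is not reported here.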

Additional observations from a re-analysis of the deposited data

Results flagged for a closer look

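In 3 groups of 5 libraries 1 value lay farther from its nearest neighbour than Dixon's 95% limit allows, which chance does in about 1 of 20 groups, among 25 groups examined. Btnl2 in NEMOIEC-KO Il12a-/- replicate 1 was 3.54 FPKM, with the other 4 libraries at most at 0.913 FPKM. In that library Btnl4 and Btnl6 were also the highest of their group (21.8 and 47.6 FPKM), and the interferon-γ response genes summed to 3642 FPKM. The smooth muscle markers summed to 2553 FPKM, the lowest of the group, and the epithelial markers to 17183 FPKM, the highest of the group. Btnl6 in Nemofl/fl replicate 1 was 46.5 FPKM, against 21.6 to 28.1 FPKM in the others. That library also had the highest Btnl1 (8.34 FPKM), Btnl4 (10.7 FPKM), Hnf4a (285 FPKM) and Hnf4g (7.34 FPKM) of its group and the lowest smooth muscle sum (3375 FPKM). Btnl9 in NEMOIEC-KO Il12b-/- replicate 2 was lowest, at 0.143 FPKM, where all values of that gene were low; the same library had the lowest Btnl1 (1.54 FPKM) and Btnl6 (12.5 FPKM) of the 25. It also had the lowest smooth muscle sum (2193 FPKM) and the highest epithelial sum (16523 FPKM) of its group. The epithelial sum of Nemofl/fl replicate 1 was 12848 FPKM, within the range of its group. All 3 libraries thus had the lowest smooth muscle sum of their group, with low Btnl6 in Il12b-/- replicate 2 and high Btnl6 in the others. Whether tissue makeup or another property of these libraries is behind the values was not tested.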

How the results depend on the processing

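Counts of members past the threshold moved with some settings. With the smooth muscle score as covariate they were 1 for NEMOIEC-KO against Nemofl/fl and 1 for Il12b-/- against NEMOIEC-KO, and with the epithelial score 1 and 0; both scores differ between the genotypes. Within the code of Nemofl/fl the first count was 1, since Btnl2 did not pass the filter there. Within the code of the double mutants, with 2 NEMOIEC-KO libraries, it was 0 for Il12a-/- against NEMOIEC-KO and 0 for Il23a-/- against Il12a-/-. Leaving out 1 library gave 2 to 3 members for NEMOIEC-KO against Nemofl/fl, 1 to 3 for Il12b-/- against NEMOIEC-KO (1 without NEMOIEC-KO replicate 2 or Il12b-/- replicate 1) and 1 to 3 for Il12a-/- against NEMOIEC-KO (3 without Il12a-/- replicate 1). Against Nemofl/fl the count for Il12b-/- became 1 with a pseudocount of 0.1 or only the 10 libraries compared. The count for Il12a-/- became 0 with a pseudocount of 1, no filter, the epithelial score, Xist above 1 FPKM as covariate or only 10 libraries, and ranged from 0 to 1 on leaving out a library (0 without Nemofl/fl replicate 1, 4 or 5). The count for Il23a-/- became 2 with Xist or only 10 libraries, and ranged from 1 to 2 (2 without Il23a-/- replicate 1 or 5). Sex is not in the labels, and Xist passed 1 FPKM in 0, 1, 2, 2 and 4 libraries of Nemofl/fl, NEMOIEC-KO, Il12b-/-, Il12a-/- and Il23a-/-.

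Relative to epithelial markers, Btnl2 differed by 4.56 and 2.54 (pseudocount 0.1 and 1) in NEMOIEC-KO against Nemofl/fl and by -2.95 and -1.99 in Il12b-/- against NEMOIEC-KO, and Btnl9 by 0.84 (pseudocount 0.1) in the latter. In Il12b-/- against NEMOIEC-KO, Btnl6 was past the threshold in 7 of 23 alternatives, with values from -1.0 to -0.46, and Btnl2 in 22 of 23 (-3.31 to -1.68). In Il12a-/- against NEMOIEC-KO, Btnl5-ps was past it in 7 of 23 (-1.05 to -0.22) and Btnl7-ps in 8 of 22 (-1.13 to -0.49). Btnl7-ps in Il23a-/- against NEMOIEC-KO changed sign to -0.03 within the library code and to -0.15 without NEMOIEC-KO replicate 3, and leaving out 1 library gave -0.15 to 0.21. Where the cause is not named above, the cause was not tested. With a replicate block the difference of Btnl6 in NEMOIEC-KO against Nemofl/fl stayed 0.65 and the count of members there was 3; in the other comparisons the count was the same with the block.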
